A study of Mus musculus with 96 samples.

Results

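Leukaemia clones that started from granulocyte-monocyte progenitors (GMP) were followed in NSG mice that had received them either together with leukaemia cells of stem and early progenitor (LSK) origin or alone. The comparison used the mCHERRY barcodes, which per the labels mark cells of GMP origin. They made up 1387 of the 2844 barcodes of the NSG table, beside 1281 GFP barcodes, which mark LSK origin, and 176 BFP barcodes. The mixed mice were mice 21 to 24, with 7 libraries (4 spleens and 3 bone marrows, since mouse 24 had a spleen library), and the GMP-only mice were mice 13 to 16, with 8 libraries (4 of each tissue). These 15 libraries of 8 mice were chosen by host, tissue and cell input out of 48 columns from 23 mice and the cell pools, and held 5346427 to 7783350 barcode reads each.

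Both cell inputs came from female C57BL/6 mice aged 6 to 8 weeks. LSK cells were sorted as Lin- c-Kit+ Sca-1+ and GMP as Lin- c-Kit+ CD34+ cells high in the Fcγ receptor. Each population was transduced with a retrovirus carrying MLL-AF9 and later with a SPLINTR barcode library, so every group compared here carries MLL-AF9 and a barcode. NSG mice lack B, T and NK cells. The labels give neither the age of the recipients nor the number of cells injected. There was 1 GMP cell pool and 1 mixed pool, so the mice of a group are repeat transplants of 1 pool and not separate leukaemias.

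MLL-AF9 joins the MLL protein to a partner that recruits transcription elongation factors, and it keeps blood progenitors in a self-renewing state. Both LSK cells and GMP, which no longer make all blood lineages, can give rise to acute myeloid leukaemia after its transduction. A DNA barcode is inherited by all descendants of a cell, so the share of a barcode among the reads follows the share of that clone among the leukaemia cells. In barcoded transplants a few clones usually come to hold most of the graft.

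GMP-derived cells persisted beside the LSK-derived cells in every mixed library. In spleen, mCHERRY barcodes held 41.8% of reads in mouse 21, 50.7% in mouse 22, 20.4% in mouse 23 and 45.0% in mouse 24. In bone marrow they held 56.1%, 38.1% and 34.4% in mice 21, 22 and 23. The mixed pool held 49.4%. Mouse 23 was lowest in both tissues. Every value below was therefore rescaled to the mCHERRY reads of its library, which numbered 1562645 to 3717597 in mixed and 5784321 to 7341241 in GMP-only libraries. In LSK-only mice, which should hold no mCHERRY barcode, these made up 0.00982% to 0.128% of reads, and at most 4 of them in a library reached 100 per 1000000 of all reads. GFP barcodes made up 0.0136% to 0.0430% of reads in the GMP-only libraries other than the spleens of mice 13 and 14, which held 0.462% and 0.538%. The mixed mice may also have received fewer GMP cells, and such a lower dose and the presence of the LSK competitor cannot be told apart in any comparison below.

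The mixed pool and the GMP pool carried nearly the same mCHERRY clones at nearly the same shares. The mixed pool held 989 mCHERRY barcodes and the GMP pool 1050, with 958 in both. At or over 100 per 1000000 mCHERRY reads (0.01%) there were 618 in the mixed and 607 in the GMP pool, and 578 in both. Over those 578 the median log2 ratio of the mixed to the GMP pool was 0.02, and 99.7% of them differed by less than 2-fold. Effective clones numbered 272.9 in the mixed and 268.5 in the GMP pool. This number is the exponential of the Shannon entropy, that is, the number of equally large clones with the same diversity. Each pool was measured once, so these values have no replicate error.

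Mixed bone marrows held fewer GMP clones than GMP-only bone marrows, with no overlap between the mice, but the adjusted p did not pass. A clone was counted as detected at or over 100 per 1000000 mCHERRY reads. Mice 21, 22 and 23 held 23, 27 and 15 detected clones in mixed bone marrow, against 37, 34, 30 and 34 in the GMP-only bone marrows of mice 13 to 16. The means were 21.7 ± 6.11 in mixed (SD, n = 3) and 33.8 ± 2.87 in GMP-only marrows (SD, n = 4), a log2 ratio of -0.68. The exact two-sided permutation p was 0.0286, the smallest that 3 against 4 mice allow, and the p adjusted over the 4 measures of clone number and dominance was 0.114, which did not pass the threshold of 0.05. Without mouse 23, which had the fewest clones, the log2 ratio was -0.43.

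The difference in marrow clone number depended on where the minimum was set. With clones counted from 10 per 1000000, mixed marrows held 38, 65 and 26 clones and GMP-only marrows 55, 52, 52 and 69 (log2 -0.50, exact permutation p = 0.2). From 1000 per 1000000, mixed marrows held 15, 22 and 12 clones and GMP-only marrows 21, 20, 17 and 22 (log2 -0.33, exact permutation p = 0.257). Under both minima the count of mouse 22 lay within the GMP-only range. After every library was thinned to 1562645 mCHERRY reads, clones with any read averaged 79.4, 79.2 and 33.7 in the mixed marrows and 99.3, 65.2, 67.3 and 95.2 in the GMP-only marrows (log2 -0.43, exact permutation p = 0.371).

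In spleen the clone numbers of mixed and GMP-only mice overlapped. Mice 21, 22, 23 and 24 held 29, 22, 16 and 31 detected clones in mixed spleen, against 31, 25, 31 and 32 in the GMP-only spleens of mice 13 to 16. The means were 24.5 ± 6.86 and 29.8 ± 3.20 (SD, n = 4 each), a log2 ratio of -0.32 (exact permutation p = 0.229, adjusted 0.305). Mice 21 and 24 lay within the GMP-only range and mice 22 and 23 below it. Without mouse 23 the log2 ratio was -0.13. It was -0.08 for any read after thinning (exact permutation p = 0.8286) and -0.73 with the minimum set on CPM as deposited, over all barcodes (exact permutation p = 0.05714). That last minimum was stricter for mixed spleens, where mCHERRY barcodes held 20.4% to 50.7% of reads, against at least 99.4% in GMP-only spleens. A lower count in mixed mice is thus built in, and nothing is read from it. Over the 7 mice with both tissues, so without mouse 24, the spleen log2 ratio was -0.45 and the ratio in marrow was 0.23 lower. That difference between tissues did not pass an exact permutation test (p = 0.257, adjusted 0.381).

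**Figure D1:**
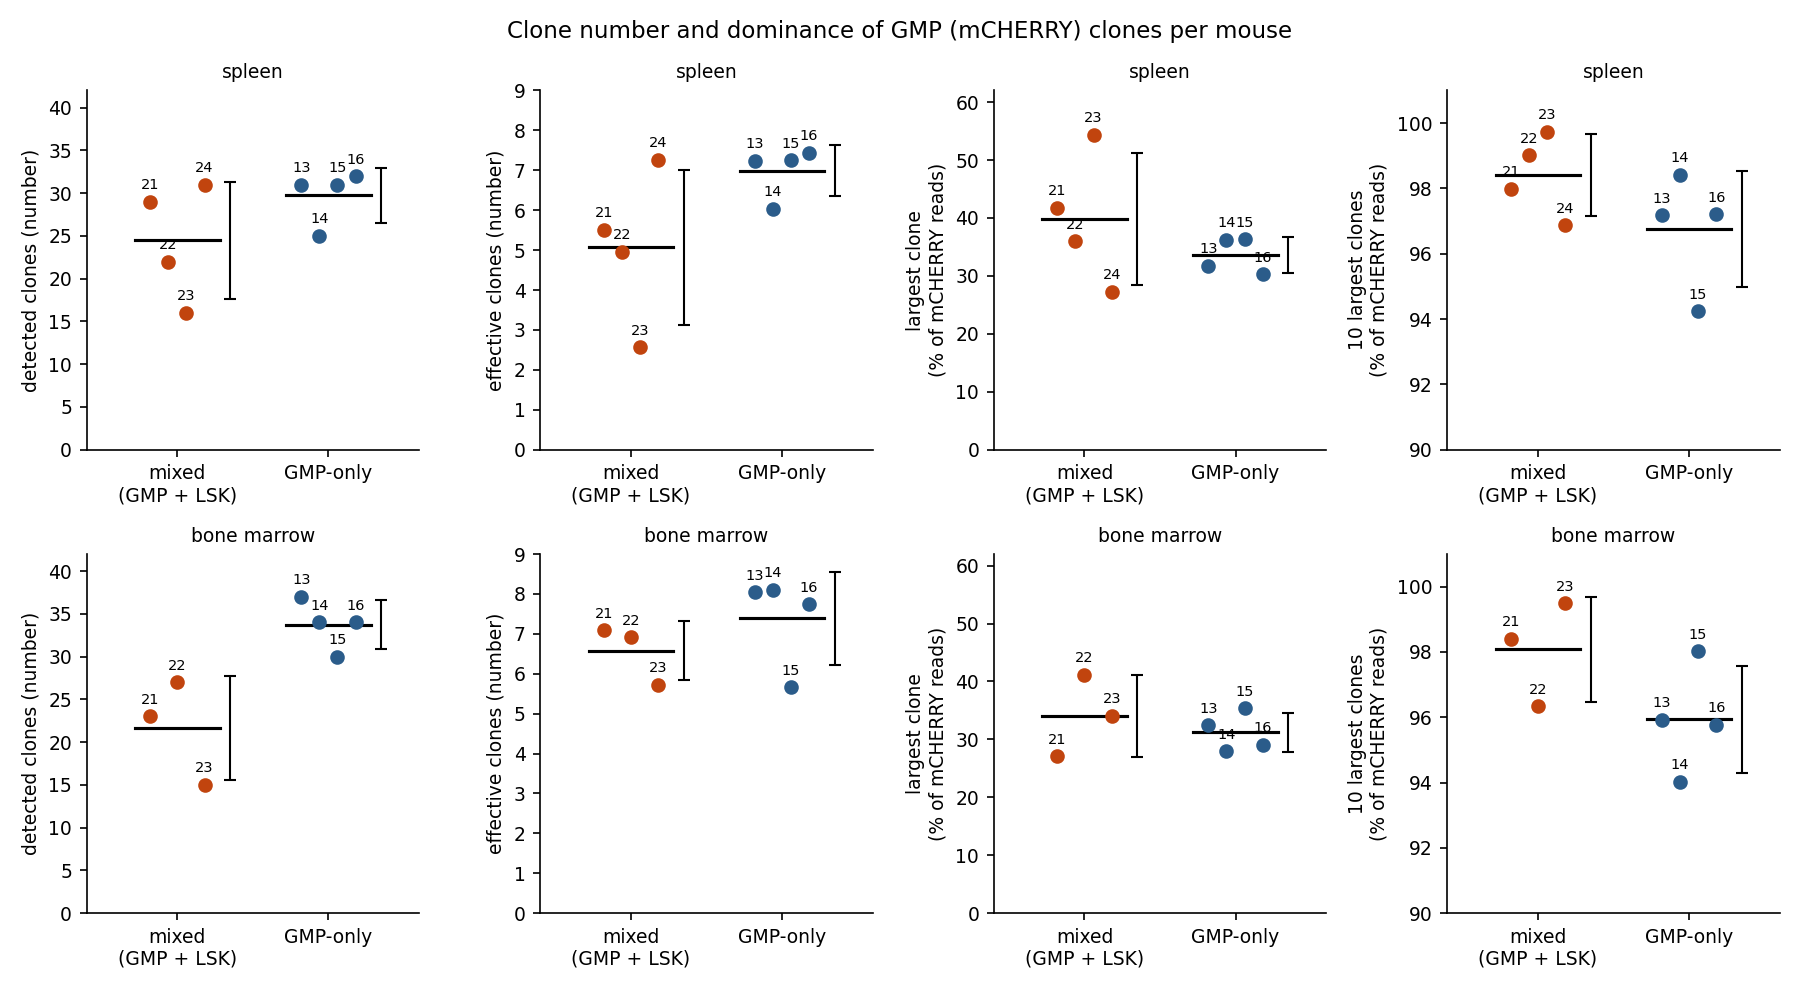
Points are single mice, numbered, with mixed mice left and GMP-only mice right. Columns show detected clones (at or over 100 per 1000000 mCHERRY reads), effective clones, and the percentage of mCHERRY reads in the largest clone and in the 10 largest clones (an axis that starts at 90). Black lines are means and bars are ± SD. The groups are apart for detected clones in bone marrow (15 to 27 against 30 to 37) and overlap in the other 7 panels.

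Counted over both tissues of a mouse, the mixed mice also held fewer clones than the GMP-only mice, a difference that was not tested. Mice 21, 22 and 23 held 34, 31 and 18 clones in marrow or spleen, and mice 13 to 16 held 41, 41, 37 and 43. Clones detected in both tissues numbered 18, 18 and 13 in the mixed and 27, 18, 24 and 23 in the GMP-only mice, so that mice 21 and 22 tied with mouse 14. Clones of 1 tissue alone were small in sum. They held 0.0792% to 1.62% of a library's mCHERRY reads in mixed and 0.0864% to 3.87% in GMP-only mice.

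Effective clones, which weigh clones by their share, gave a smaller difference in marrow. They numbered 7.09, 6.92 and 5.73 in mixed bone marrow and 8.04, 8.11, 5.66 and 7.74 in GMP-only bone marrow (log2 -0.16, exact permutation p = 0.4, adjusted 0.533). Mouse 15 of the GMP-only group was the lowest of the 7, and the log2 ratio was -0.28 without it and -0.06 without mouse 23. In spleen they numbered 5.51, 4.95, 2.57 and 7.27 in mixed mice and 7.24, 6.03, 7.25 and 7.44 in GMP-only mice (log2 -0.55, exact permutation p = 0.114, adjusted 0.305). Mice 21, 22 and 23 lay below all GMP-only spleens, and mouse 24 lay among them. Without mouse 23 the log2 ratio was -0.26, and without mouse 24 it was -0.76 (exact permutation p = 0.0286, the smallest allowed, not adjusted).

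The share of the largest GMP clone overlapped between mice with and without LSK cells. In mixed spleens it held 41.8%, 36.0%, 54.3% and 27.3% of mCHERRY reads in mice 21 to 24, and in GMP-only spleens 31.7%, 36.2%, 36.3% and 30.3% in mice 13 to 16. The difference of 6.23 percentage points did not pass (exact permutation p = 0.371, adjusted 0.371) and was 1.39 points without mouse 23 and 10.4 points without mouse 24. In mixed bone marrows it held 27.1%, 41.1% and 34.0%, and in GMP-only bone marrows 32.5%, 27.9%, 35.4% and 29.1% (difference 2.84 points, exact permutation p = 0.571, adjusted 0.571). The marrow difference was -0.68 points without mouse 22, 6.35 without mouse 21 and 1.75 without mouse 14. The spread within the mixed group covered that of the GMP-only group in both tissues.

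The 10 largest clones held nearly all mCHERRY reads in both groups. In spleen they held 98.0%, 99.0%, 99.7% and 96.9% in mixed mice and 97.2%, 98.4%, 94.2% and 97.2% in GMP-only mice (difference 1.65 points, exact permutation p = 0.2, adjusted 0.305). In bone marrow they held 98.4%, 96.3% and 99.5% in mixed mice and 95.9%, 94.0%, 98.0% and 95.8% in GMP-only mice (difference 2.14 points, exact permutation p = 0.143, adjusted 0.286). The groups overlapped in both tissues, and without GMP-only mouse 15 the spleen difference was 0.81 points (exact permutation p = 0.371). With both tissues averaged per mouse, where mouse 24 enters with its spleen, the difference was 1.74 points (exact permutation p = 0.0286, the smallest that 4 against 4 mice allow, not adjusted). Over the 7 mice with both tissues it was 2.15 points (exact permutation p = 0.0286, not adjusted), a choice made after seeing the data.

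The shares by rank describe the same libraries along the whole order of clones. The first clone of a library averaged 34.1% ± 7.03 in mixed marrow (SD, n = 3) and 31.2% ± 3.38 in GMP-only marrow (SD, n = 4), and the second 24.98% ± 5.91 and 24.7% ± 4.43. The clone at rank 10 held 0.571% ± 0.118 in mixed and 0.915% ± 0.381 in GMP-only marrow. At rank 20 it held 0.0509% ± 0.0720 in mixed and 0.116% ± 0.0658 in GMP-only marrow. At rank 30 the mixed marrows ranged from 0.000191% to 0.00607% and the GMP-only marrows from 0.0107% to 0.0288%, with no overlap. In spleen the rank 30 clone ranged from 0.00269% to 0.0127% in mixed and from 0.00603% to 0.0179% in GMP-only mice, with overlap. These ranks were chosen after the values were seen and were not tested.

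**Figure D2:**
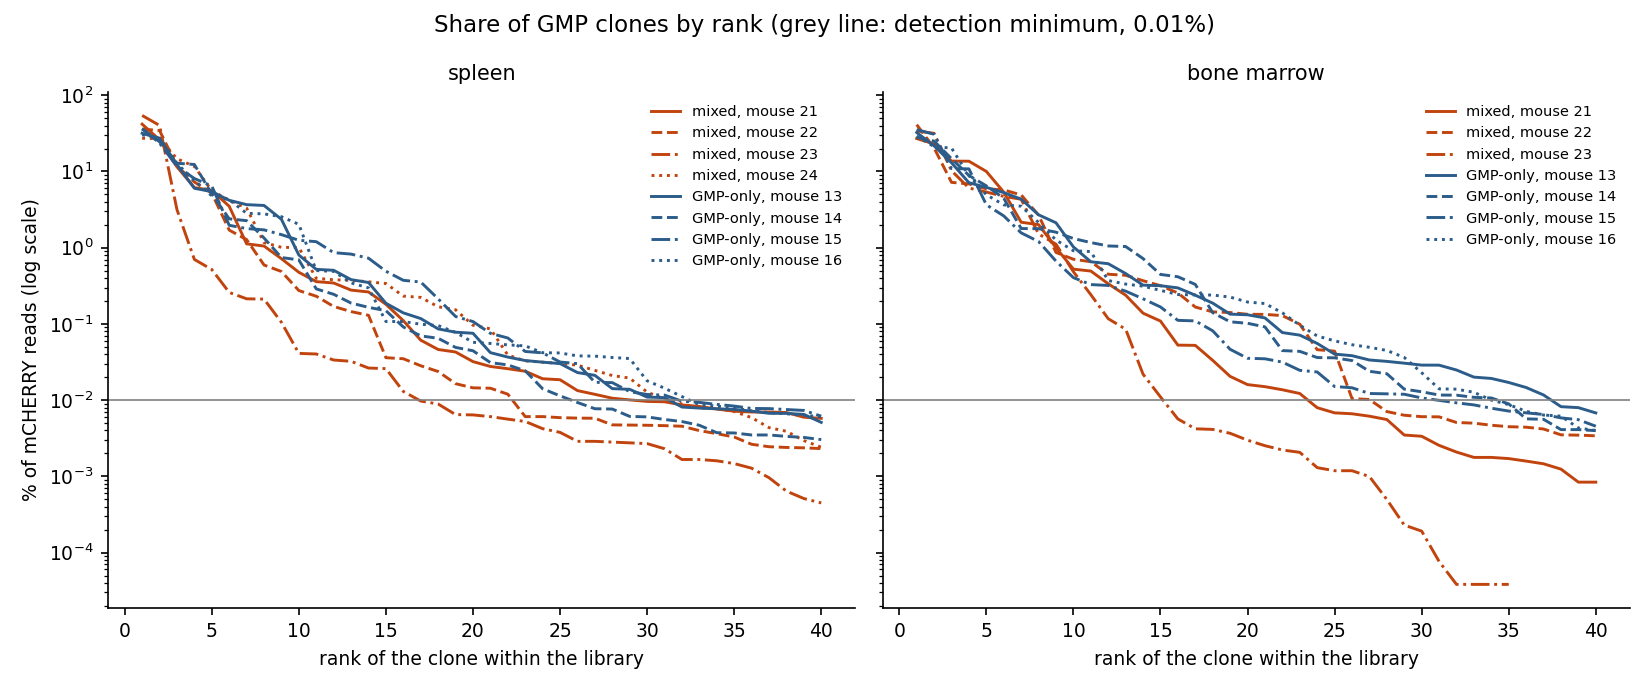
Lines are single libraries of mixed (orange) and GMP-only mice (blue), with a line style per mouse. The x axis is the rank of a clone within its library, up to 40, and the y axis its percentage of mCHERRY reads on a log scale. The grey line marks the detection minimum of 0.01%. In spleen the curve of mouse 23 parts from the others at rank 3 (3.16%), and from rank 11 on mouse 23 is lowest in both tissues.

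The pair of clones at the top was the same in all 15 libraries. The first clone of each library was either mCHERRY_2_Barcode_626161 or mCHERRY_2_Barcode_283858. In mixed mice each of them led 2 spleens, and mCHERRY_2_Barcode_283858 led 2 marrows and mCHERRY_2_Barcode_626161 1. In GMP-only mice mCHERRY_2_Barcode_283858 led 3 spleens and 1 marrow, and mCHERRY_2_Barcode_626161 led 1 spleen and 3 marrows.

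The clone mCHERRY_2_Barcode_626161 had been the second largest of both pools, at 2.998% of the mixed and 2.97% of the GMP pool. It held 41.8%, 34.4%, 40.2% and 27.3% of mCHERRY reads in the mixed spleens of mice 21 to 24 and 27.1%, 24.5%, 36.3% and 27.4% in the GMP-only spleens of mice 13 to 16. It held 22.98%, 41.1% and 31.6% in mixed marrows and 32.5%, 27.9%, 30.8% and 29.1% in GMP-only marrows. The groups overlapped in both tissues, with log2 differences of 0.31 ± 0.30 in spleen and 0.05 ± 0.26 in marrow (limma, ± SE, adjusted p = 0.562 and 0.945).

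The clone mCHERRY_2_Barcode_283858 started lower, at rank 53 of the mixed pool with 0.425% and rank 41 of the GMP pool with 0.491%. It reached 26.0%, 36.0%, 54.3% and 27.0% in mixed spleens and 31.7%, 36.2%, 23.6% and 30.3% in GMP-only spleens. In marrow it reached 27.1%, 20.3% and 34.0% in mixed mice and 21.7%, 25.1%, 35.4% and 21.2% in GMP-only mice. On average it stood 6.40 log2 above its pool in mixed and 5.95 log2 above its pool in GMP-only spleens, and 6.00 and 5.72 log2 above in mixed and GMP-only marrows. The groups overlapped, and limma called no difference (log2 0.19 ± 0.29 in spleen and 0.07 ± 0.29 in marrow, ± SE, adjusted p = 0.608 and 0.945). Together the pair held 71.8% ± 16.8 of mCHERRY reads in mixed and 59.3% ± 1.35 in GMP-only spleens (SD, n = 4 each), with a range of 54.2% to 94.5% in mixed and 57.6% to 60.7% in GMP-only spleens. The upper end of the mixed range was mouse 23. In marrow the pair held 59.1% ± 8.09 in mixed (SD, n = 3) and 55.9% ± 7.05 in GMP-only mice (SD, n = 4).

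The next clones also overlapped between the groups. mCHERRY_2_Barcode_1204592, rank 4 in both pools, held 11.5%, 5.19%, 3.16% and 5.58% in mixed spleens and 12.3%, 12.8%, 6.44% and 12.7% in GMP-only spleens. In marrow it held 10.0%, 5.73% and 5.37% in mixed mice and 13.02%, 6.48%, 10.9% and 20.3% in GMP-only mice. Its mean was lower in mixed mice in both tissues, but the groups overlapped and limma did not call it (log2 -0.90 ± 0.61 in spleen and -0.79 ± 0.52 in marrow, ± SE, adjusted p = 0.418 and 0.684). mCHERRY_2_Barcode_88201, at 0.428% of the mixed and 0.436% of the GMP pool, averaged 8.57% ± 2.75 over the mixed and 7.34% ± 1.96 over the GMP-only mice (SD, n = 4 each, tissues averaged per mouse, with mouse 24 by its spleen here and in other means over mice). mCHERRY_2_Barcode_205681 started at 0.0555% of the mixed and 0.0611% of the GMP pool, rank 316 and 292, and averaged 5.15% ± 1.68 over the mixed and 4.28% ± 1.08 over the GMP-only mice. Its single libraries ranged widely, from 0.110% to 11.8% in mixed spleens and from 1.78% to 7.68% in GMP-only spleens.

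**Figure D3:**
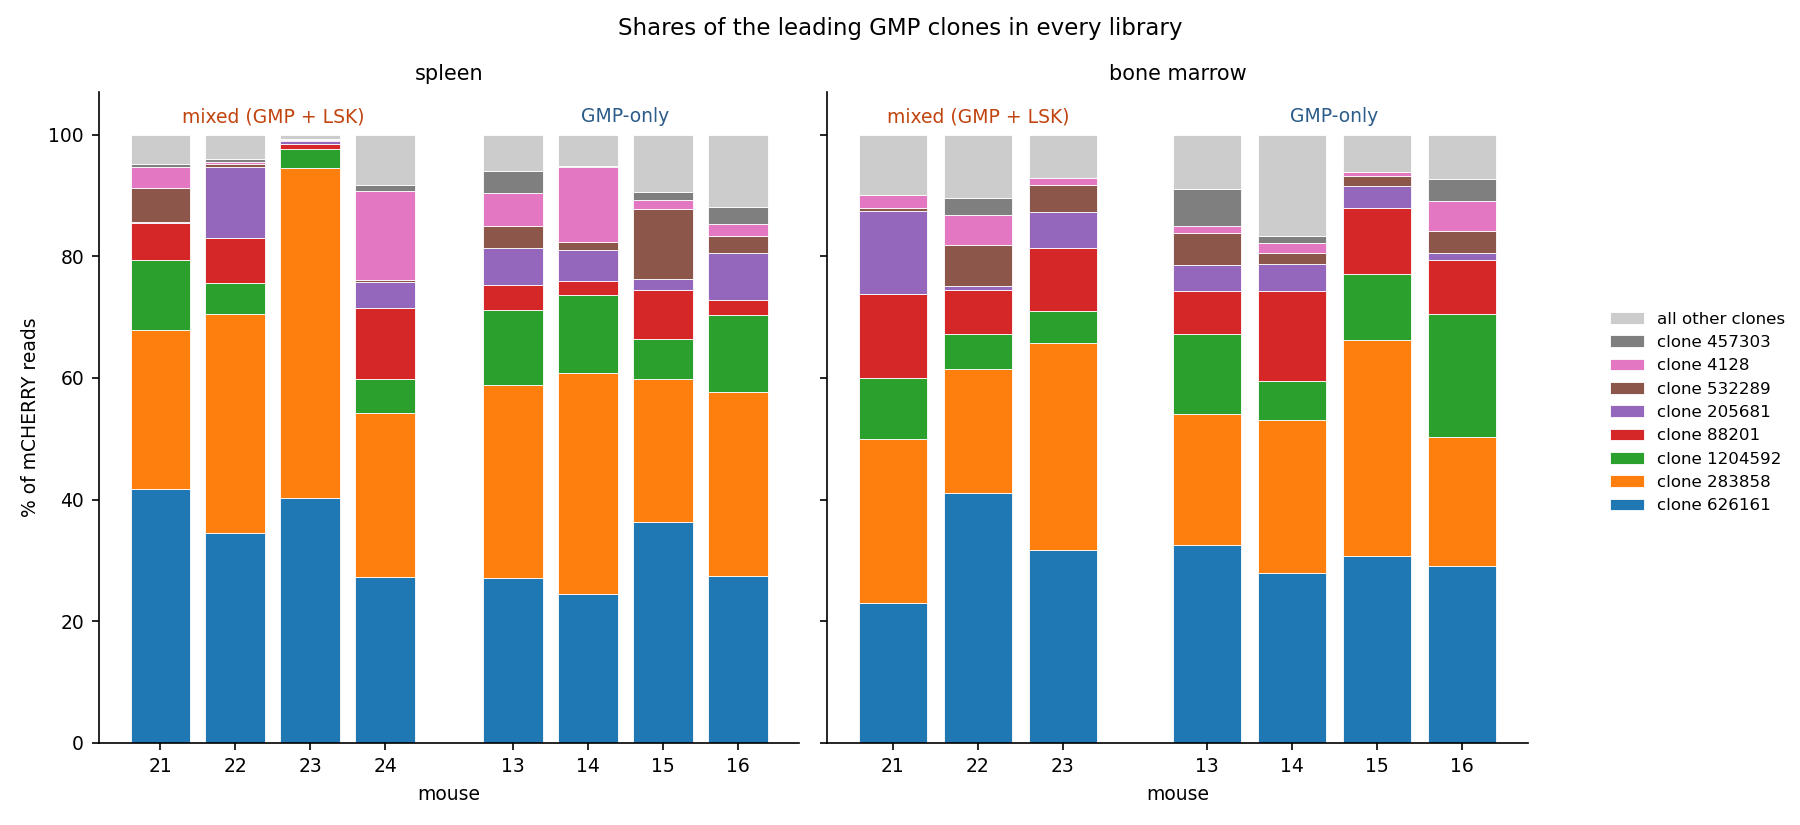
Bars are the 15 libraries, with mixed mice left and GMP-only mice right in each panel, and their height is the percentage of mCHERRY reads. Colours mark the 8 clones that were among the 10 leading clones of both groups, named by the last number of the barcode, and grey marks all other clones. The 2 lowest segments, mCHERRY_2_Barcode_626161 and mCHERRY_2_Barcode_283858, hold between 50.0% and 94.5% of a library.

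The leading lists differed in a few lower places. By mean over mice, 8 clones were among the 10 leading clones of both groups. mCHERRY_2_Barcode_387279 was rank 15 in mixed and rank 9 in GMP-only mice, and mCHERRY_2_Barcode_88122 was rank 12 in mixed and 10 in GMP-only mice. mCHERRY_2_Barcode_151869 and mCHERRY_2_Barcode_222912 were ranks 7 and 9 in mixed and 11 and 12 in GMP-only mice. mCHERRY_2_Barcode_151869 held 1.12%, 1.70%, 0.0403% and 3.30% in mixed spleens and 0.140%, 0.0696%, 0.107% and 0.0574% in GMP-only spleens. Mouse 23 lay below the GMP-only spleens and the other 3 mixed mice above them (limma log2 3.01 ± 1.95, ± SE, adjusted p = 0.392). In the GMP-only marrow of mouse 14 the same clone reached 8.87%.

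Clones with a larger share of the pool were detected more often, which was not tested. A large share alone did not bring a clone to the top in either group. Per library, 23.1% to 46.2% of the clones at or over 1% of the GMP pool were detected. The range was 4.98% to 12.7% at or over 0.1%, 0.518% to 2.07% from 0.01% to 0.1%, and 0% to 0.903% below 0.01%. Of the 13 clones at or over 1% of the GMP pool, 7 were detected in none of the 15 libraries and 3 in all of them, mCHERRY_2_Barcode_4128, mCHERRY_2_Barcode_626161 and mCHERRY_2_Barcode_1204592. The largest pool clone, mCHERRY_2_Barcode_4128 (3.30% of the mixed and 3.24% of the GMP pool), averaged 5.19% ± 6.41 over mixed and 3.72% ± 2.48 over GMP-only mice (SD, n = 4 each). The third largest, mCHERRY_2_Barcode_205626 (2.32% and 2.60% of the mixed and GMP pool), averaged 0.0589% ± 0.110 and 0.128% ± 0.0915 in mixed and GMP-only mice. It was detected in 1 of 4 mixed and 2 of 4 GMP-only spleens, and in 1 of 3 mixed and 4 of 4 GMP-only marrows. The fifth largest, mCHERRY_2_Barcode_34872 (2.00% and 1.92%), was detected in no library, and its highest value was 0.000104% in a mixed and 0.00183% in a GMP-only library.

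Clone survival was then read by the share a clone had held in the pools. The GMP pool had 221 clones at or over 0.1%, 386 from 0.01% to 0.1% and 443 below. In bone marrow, 17, 18 and 11 of the 221 larger clones were detected in mixed mice 21, 22 and 23, against 28, 27, 22 and 26 in GMP-only mice 13 to 16. As percentages these were 6.94% ± 1.71 in mixed (SD, n = 3) and 11.7% ± 1.19 in GMP-only marrow (SD, n = 4), a difference of -4.71 points, and the groups did not overlap. The exact permutation p was 0.0286, the smallest that 3 against 4 mice allow, and the p adjusted over the 6 pool classes of the tissue was 0.0857, which did not pass. Classed by the mixed pool, which had 222 such clones, the difference was -4.77 points (6.61% ± 1.82 and 11.4% ± 1.06, exact permutation p = 0.0286, adjusted 0.0857). Both classings use nearly the same clones and the same mice, so the second is not a separate test of the first. Most clones detected in each marrow belong to this class, so the result also largely repeats the count of detected clones.

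Counts of the smaller pool clones overlapped in marrow. Of the 386 clones from 0.01% to 0.1% of the GMP pool, 5, 7 and 4 were detected in mixed and 8, 3, 7 and 7 in GMP-only marrows (1.38% ± 0.396 and 1.62% ± 0.574, exact permutation p = 0.543, adjusted 0.814). Of the 443 below 0.01%, 1, 2 and 0 were detected in mixed and 1, 4, 1 and 1 in GMP-only marrows (exact permutation p = 0.714, adjusted 0.857). Whether the larger clones differed more than the smaller ones was not tested.

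In spleen the groups overlapped in every class. Of the 221 larger clones, 20, 18, 12 and 28 were detected in mixed mice 21 to 24 and 23, 19, 21 and 21 in GMP-only mice 13 to 16 (8.82% ± 2.99 and 9.50% ± 0.739, SD, n = 4 each, exact permutation p = 0.686, adjusted 0.823). The mixed group held both the lowest value, in mouse 23, and the highest, in mouse 24, of the 8 mice. Without mouse 23 the sign of this difference turned, to 0.45 points. Of the 386 clones in the middle class, 8, 4, 4 and 2 were detected in mixed and 6, 6, 6 and 8 in GMP-only spleens (exact permutation p = 0.314, adjusted 0.629). Without mouse 21 that difference was -0.82 points (exact permutation p = 0.0286, not adjusted).

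Whatever the group, the clones at or over 0.1% of the GMP pool held most mCHERRY reads of every library (85.7% to 99.3%). They had held 84.0% in the GMP pool itself. They held 95.3% ± 5.20 in mixed and 92.8% ± 1.56 in GMP-only spleens (SD, n = 4 each), and 90.7% ± 6.26 in mixed (SD, n = 3) and 93.6% ± 1.30 in GMP-only marrows (SD, n = 4). Even so, 169 of the 221 (76.5%) were detected in none of the 15 libraries. Barcodes not found in the GMP pool were detected in 2 libraries, 2 of them in the spleen of GMP-only mouse 15 and 1 in that of GMP-only mouse 16.

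**Figure D4:**
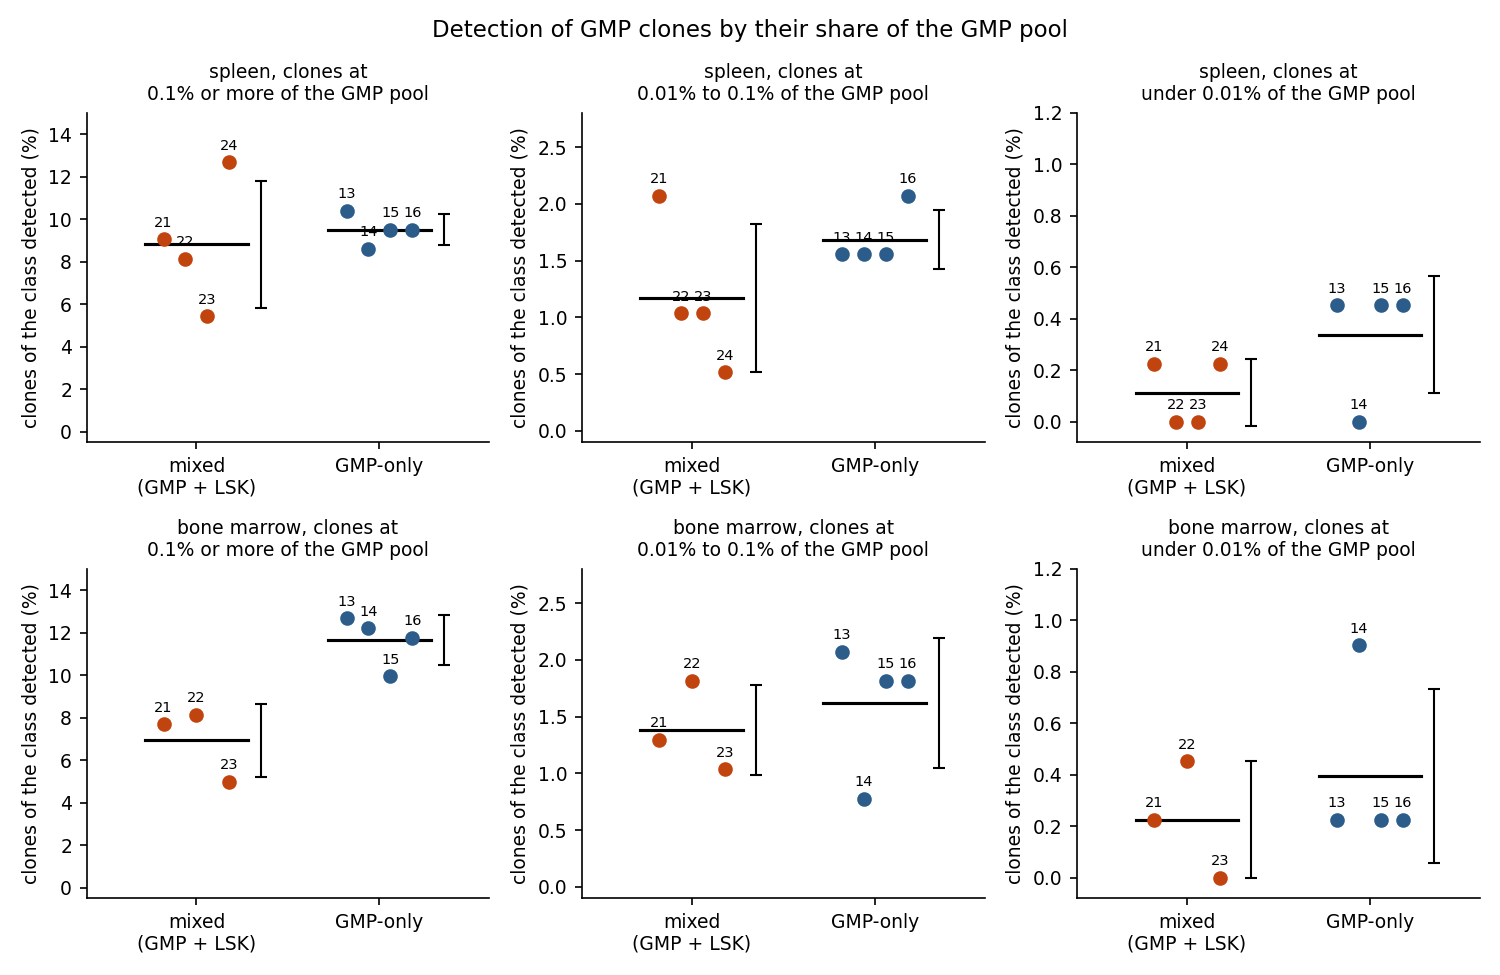
Points are single mice, numbered, with mixed mice left and GMP-only mice right. The y axis is the percentage of the GMP pool's clones of a class that were detected, and columns are the classes by share of the GMP pool, each with its own scale. Black lines are means and bars are ± SD. In the bone marrow panel for clones at 0.1% or more, the mixed mice lie between 4.98% and 8.14% and the GMP-only mice between 9.95% and 12.7%.

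The clones found in marrow and missing from the other group were mostly small. Over all marrows, 36 clones were detected in any mixed and 62 in any GMP-only mouse, with 27 in both, which is 75.0% of the mixed and 43.5% of the GMP-only list. These lists came from 3 mixed and 4 GMP-only marrows. Of the clones in a single marrow, 9 came from a mixed and 24 from a GMP-only mouse. Clones detected in no marrow of the other group held 0.138%, 0.947% and 0% of mCHERRY reads in mixed mice 21, 22 and 23, and 1.47%, 1.94%, 0.430% and 2.36% in GMP-only mice 13 to 16. In spleen, 44 clones were detected in any mixed and 45 in any GMP-only mouse, with 32 in both, which is 72.7% of the mixed and 71.1% of the GMP-only list.

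Clones that recurred among GMP-only mice were mostly detected in mixed mice too. Lists were made of the clones detected in 3 GMP-only mice and looked up in a mouse not used to make them. In spleen, 82.9%, 81.7%, 65.9% and 90.2% of such a list were detected in mixed mice 21 to 24, as means over the 4 lists, and 90.5%, 90.5%, 95% and 95% in the left-out GMP-only mice 13 to 16. In marrow the shares were 80.6%, 80.6% and 60.2% in mixed mice 21, 22 and 23 and 93.3%, 87.5%, 77.8% and 77.8% in GMP-only mice 13 to 16. Mouse 23 was lowest in both tissues, and mice 21 and 22 lay within the GMP-only range in marrow, while all 4 mixed mice lay below that range in spleen. The difference was not tested. Detected in all 15 libraries were 9 clones, which include the leading pair and mCHERRY_2_Barcode_205681, the only one of the 9 below 0.1% of the GMP pool.

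Whole-library composition by shares gave no difference between the groups that passed the test. The Bray-Curtis dissimilarity (0 for identical shares, 1 for no shared clone) averaged 0.273 between mixed and GMP-only spleens and 0.260 within groups, a difference of 0.01 (exact one-sided permutation p = 0.2, adjusted 0.4). Between marrows it averaged 0.240 and within groups 0.248 (exact one-sided permutation p = 0.629, adjusted 0.629). Mixed mice differed among themselves by 0.288 in spleen and 0.295 in marrow, and GMP-only mice by 0.232 and 0.224. With distances of log2 shares, which give small clones more weight, the spleens were farther apart between than within groups (exact one-sided permutation p = 0.0286, not adjusted). The marrow and spleen of the same mouse were 0.298, 0.282 and 0.291 apart in mixed mice 21, 22 and 23 and 0.186, 0.326, 0.240 and 0.250 apart in GMP-only mice 13 to 16 (exact permutation p = 0.343).

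Single clones were compared with limma on log2 of mCHERRY reads per 1000000 plus 10, for clones with a mean at or over 100 per 1000000. In spleen, 38 clones were tested, of which 0% were called higher and 2.63% (1 clone) lower in mixed mice. In bone marrow, 47 were tested, of which 0% were called in either direction. Below an unadjusted p of 0.05 were 8 spleen clones, 7 lower and 1 higher in mixed mice, and 3 marrow clones, all lower. Of these, only mCHERRY_2_Barcode_74010 and mCHERRY_2_Barcode_387279 in spleen reached the minimum mean in both groups. The others reached it only in the group where they were higher. The filter fixed their direction, so nothing is read from this balance. edgeR on the recovered reads called 0 clones in both tissues. The filter itself bears on these counts. In marrow, 19 of the 47 tested clones reached the minimum mean in GMP-only and not in mixed mice, 5 in mixed and not in GMP-only mice and 23 in both. In spleen the numbers were 8, 7 and 23. Of the tested marrow clones, 11 had no read in mixed and 3 none in GMP-only mice. The median log2 difference over tested clones was -1.42 in spleen and -0.79 in marrow, and over those at the minimum in both groups -1.54 in spleen and -0.23 in marrow. Values of low clones depend on the added 10, so these log2 differences understate folds of clones near 0.

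The clone called lower in mixed spleen was mCHERRY_2_Barcode_74010, at 0.0481% of the mixed and 0.0515% of the GMP pool. It was at 0 in mixed mice 21 and 24, at 0.00143% in mouse 22 and at 0.105% in mouse 23, against 0.3496%, 0.188%, 1.71% and 0.0774% in GMP-only mice 13 to 16. Mouse 23 lay within the GMP-only range, so the groups overlapped. The log2 difference was -6.26 ± 1.81 (SE, limma adjusted p = 0.0247). The call was kept without mouse 14 or 23 and lost without any other mouse, and it was lost when values were taken relative to the median tested clone of each mouse (log2 -4.54, limma adjusted p = 0.114). On that scale the called spleen clones were mCHERRY_2_Barcode_151869 and mCHERRY_2_Barcode_986693, both higher in mixed mice, and mCHERRY_2_Barcode_387279, lower, which gives 2 higher and 1 lower in place of 0 and 1. Of these, mCHERRY_2_Barcode_986693 had reached the minimum mean in mixed mice alone, so its direction is not read as a result. In marrow mCHERRY_2_Barcode_74010 was not called (log2 -2.41 ± 2.34, limma adjusted p = 0.729), with 0.0852% in mixed mouse 23 and 2.14% in GMP-only mouse 16 as the highest values.

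mCHERRY_2_Barcode_64434 was the one clone whose groups did not overlap in either tissue. It was at 0.183% of the mixed and 0.185% of the GMP pool. In marrow it had no read in the 3 mixed mice, against 0.617%, 0.0914%, 0.269% and 0.333% in GMP-only mice 13 to 16. A count of 0 allowed up to 0.000103% on average, at 3 reads per mixed library. Set against that limit, the GMP-only mean of 0.328% was 3179-fold higher. This fold covers counting error of reads alone and is no lower bound for the difference among cells. In marrow limma did not call the clone (adjusted p = 0.0669). In spleen it held 0.00219%, 0.00471%, 0% and 0.00436% in mixed mice 21 to 24 and 0.0367%, 0.743%, 0.00573% and 0.107% in GMP-only mice 13 to 16 (log2 -4.42 ± 1.71, ± SE, limma adjusted p = 0.0807). The gap in spleen was narrow, between mouse 22 and mouse 15. With both tissues averaged per mouse (mouse 24 by its spleen), limma called this clone and mCHERRY_2_Barcode_74010 (log2 -6.68 and -6.66, adjusted p = 0.0102 and 0.0157). In each tissue and averaged (0.00195% in mixed, 0.275% in GMP-only mice), mCHERRY_2_Barcode_64434 reached the minimum mean in GMP-only mice alone. The filter thus fixed its direction, and nothing is read from its p-values.

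Other clones whose groups did not overlap were few, and they are named here after their values were seen. In spleen, 2.63% of the tested clones (1 of 38) were higher and 10.5% (4 of 38) lower in every mixed mouse than in every GMP-only mouse. Of the 4 lower clones, 3 reached the minimum mean in GMP-only mice alone, and the higher clone reached it in mixed mice alone. The filter fixed the direction of these clones, so nothing is read from it. The higher one was mCHERRY_2_Barcode_986693, with 0.344%, 0.00463%, 0.00608% and 0.339% in mixed spleens and 0%, 0.00188%, 1.67e-05% and 0.00109% in GMP-only spleens (log2 4.89 ± 1.73, ± SE, limma adjusted p = 0.0668). Only mice 21 and 24 reached the detection minimum, and in marrow this clone was highest in GMP-only mouse 16, at 0.194%. The lower ones were mCHERRY_2_Barcode_387279, mCHERRY_2_Barcode_64434, mCHERRY_2_Barcode_23793 and mCHERRY_2_Barcode_29905.

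The clone mCHERRY_2_Barcode_387279 was the largest of these 4, with rank 12 and over 1% in both pools. It held 0.263%, 0.0120%, 0.000448% and 0.0390% in mixed spleens and 2.36%, 0.691%, 0.491% and 4.26% in GMP-only spleens (log2 -6.01 ± 2.00, ± SE, limma adjusted p = 0.0562). In marrow the groups overlapped, with 0.138%, 0.866% and 0% in mixed and 2.12%, 0.720%, 0.0107% and 0.912% in GMP-only mice.

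In marrow, 0% of the tested clones were higher and 12.8% (6 of 47) lower in every mixed mouse than in every GMP-only mouse. All 6 reached the minimum mean in GMP-only mice alone, so the filter fixed their direction and nothing is read from this balance. Beside mCHERRY_2_Barcode_64434 they were mCHERRY_2_Barcode_321280, mCHERRY_2_Barcode_588934, mCHERRY_2_Barcode_109489, mCHERRY_2_Barcode_651935 and mCHERRY_2_Barcode_173565, and all but mCHERRY_2_Barcode_64434 overlapped in spleen. mCHERRY_2_Barcode_321280, at 0.808% of the mixed and 0.804% of the GMP pool, held 0.0122%, 0.000910% and 0% in mixed and 0.458%, 0.3298%, 0.214% and 0.243% in GMP-only marrows (log2 -6.67 ± 2.59, ± SE, limma adjusted p = 0.313). In mixed spleens the same clone reached 1.01% in mouse 24, above all GMP-only spleens. mCHERRY_2_Barcode_588934 and mCHERRY_2_Barcode_173565 had no read in the 3 mixed marrows. In GMP-only marrows the first held 0.000940% to 1.05% and the second 1.50e-05% to 0.0712%, so that in their lowest mouse they too were near 0.

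**Figure D5:**
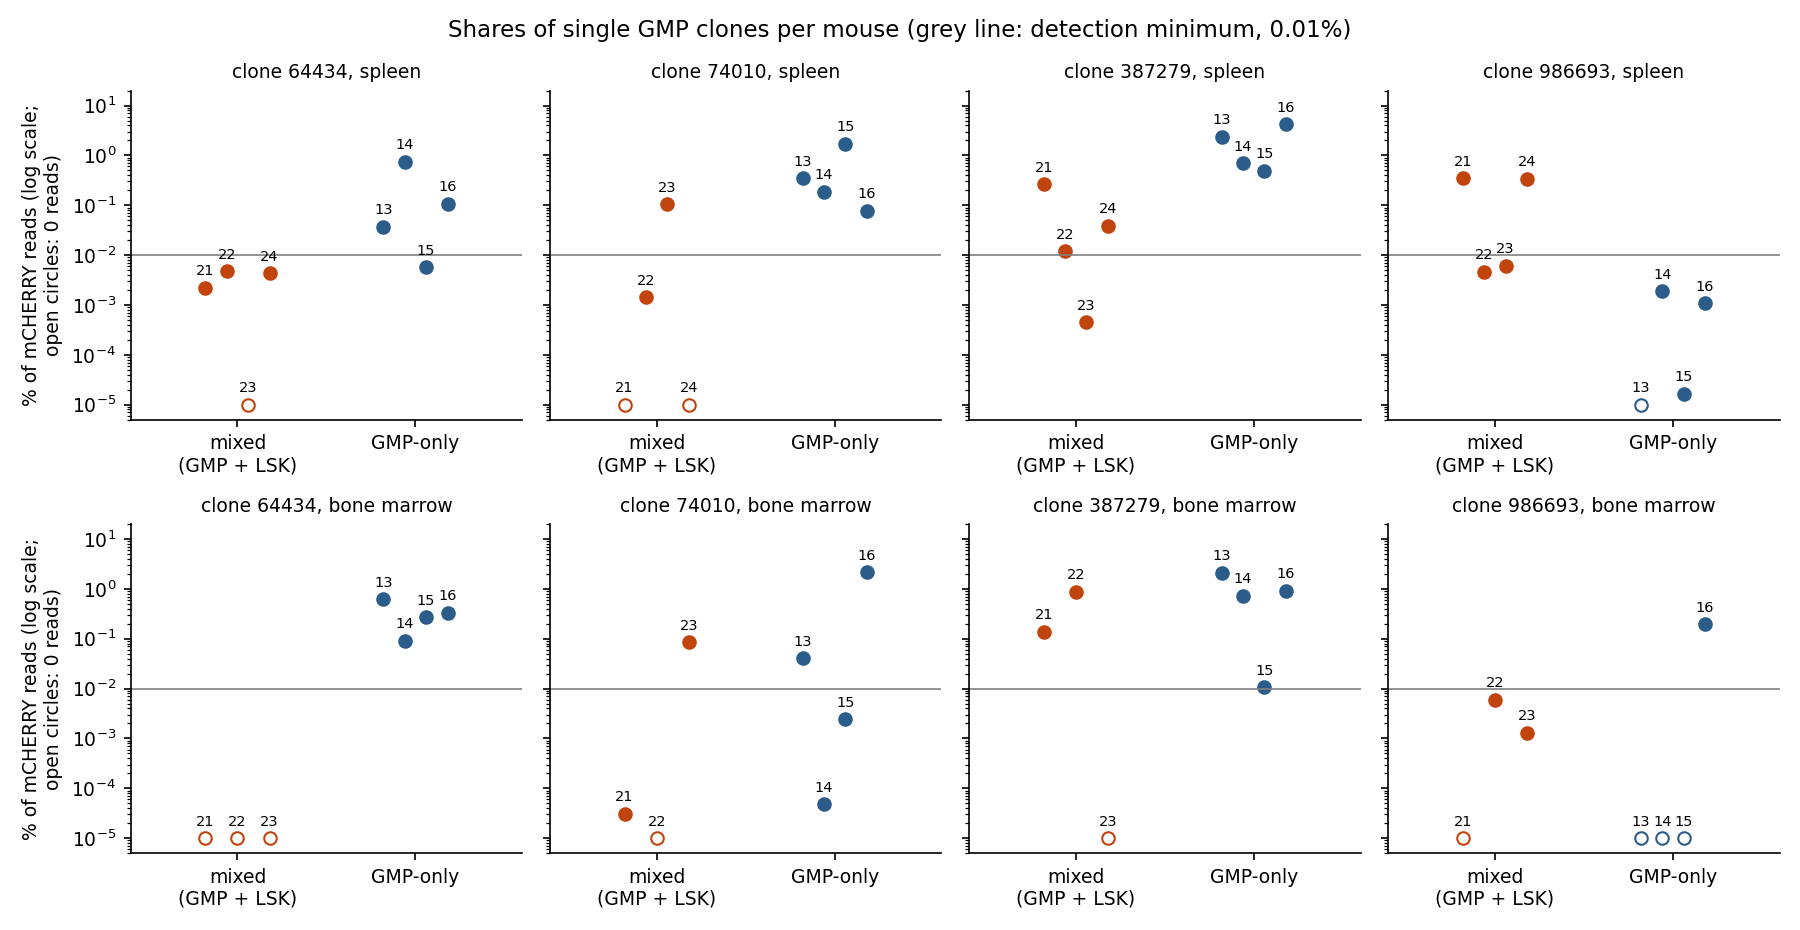
Points are single mice, numbered, with mixed mice left and GMP-only mice right, and the y axis is the percentage of mCHERRY reads on a log scale. Open circles at the bottom are libraries with 0 reads. The panels show mCHERRY_2_Barcode_64434, mCHERRY_2_Barcode_74010, mCHERRY_2_Barcode_387279 and mCHERRY_2_Barcode_986693, named by the last number of the barcode, and the grey line is the detection minimum of 0.01%. mCHERRY_2_Barcode_64434 is below the line in all 7 mixed libraries and above it in 7 of 8 GMP-only libraries.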

How the data were processed

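SPLINTR barcodes were counted in spleen and bone marrow of NSG mice. Barcodes had been filtered and PCR duplicates collapsed before deposit, and the authors' deposited values are CPM, per 1000000 barcode reads of each library. Bowtie 1.2.2 and R 3.6 appear in the submitters' processing notes; their settings are not given in the sources used here. All values (100%) were whole multiples of 1 step within 0.01 of a read, which gave whole reads. mCHERRY reads were rescaled per library to reads per 1000000 mCHERRY reads, so a rise of 1 clone lowers the others.

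The mouse was the unit. Group differences were tested by exact two-sided permutation over mice, adjusted by Benjamini-Hochberg within each tissue over 4 measures or 6 survival classes. Single clones were tested with limma 3.58.1 (trend), with edgeR 4.0.16 as an alternative, and called at an adjusted p under 0.05. The scripts were tested on simulated data. Intervals and the floor of 3 reads cover counting error of reads alone. They understate the full error, since PCR reads are not independent molecules. Per the labels, extraction followed a droplet protocol for single cells, which leaves the DNA preparation unclear.

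Members, measures and the rule for named clones were chosen with earlier results of these data known. The rule named the 10 leading clones of each group, the 5 largest of each pool, up to 5 clones called per tissue and direction, and up to 5 without overlap in either tissue. It also sought clones at 1% or more in 1 mouse and under 0.01% in all others, of which there were none. Alternatives were other minima, pseudocounts, indices, distances and scalings, and each mouse left out in turn. Chosen after seeing the data were leaving out the GMP-only spleens with at least 0.1% GFP reads, and averaging both tissues without mouse 24. In averages over tissues mouse 24 otherwise enters with its spleen.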

Additional observations from a re-analysis of the deposited data

Results flagged for a closer look

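In groups of 4 mice, the highest or lowest mouse was checked for a gap to the next that exceeds Dixon's limit. For continuous, normally distributed values chance gives such a gap in about 5% of groups. Of 79 groups checked, 13 held such a mouse, where that rate would give 3.95. Several of the flags rest on tied counts of a few clones or on a few reads, where the rate does not hold, so no excess is read from this. The groups share mice and reads, so these are not separate events.

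Mouse 14 had the fewest detected clones (25) and effective clones (6.03) of the GMP-only spleens. It also had 0 detected clones from the class under 0.01% of either pool there, and the highest share of the class under 0.01% of the GMP pool in marrow (0.903%). Mouse 15 had the fewest effective clones of the GMP-only marrows (5.66) and the lowest mCHERRY_2_Barcode_1204592 of the GMP-only spleens (6.44%). It also had the highest mCHERRY_2_Barcode_34872 of the GMP-only marrows (0.00183%).

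Mouse 16 had the highest detected share of the class from 0.01% to 0.1% of the GMP pool in GMP-only spleens (2.07%), and the lowest mCHERRY_2_Barcode_205681 (1.26%) and mCHERRY_2_Barcode_222912 (0.00713%) of the GMP-only marrows. Among mixed spleens, mouse 24 had the highest share of the class under 0.01% of the mixed pool (0.270%), and mouse 21 was the only one with a read of mCHERRY_2_Barcode_34872 (0.000104%).

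Barcodes of libraries these mice did not receive were also found. GFP barcodes reached 0.538% of reads in the spleen of GMP-only mouse 14 and BFP barcodes 0.0386% in that of GMP-only mouse 15, against 0.0137% and 0.00702% in the GMP pool.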

How the results depend on the processing

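Values here are differences of mixed from GMP-only mice (log2 for clone numbers, percentage points for shares), and a result is said to pass at an unadjusted exact permutation p under 0.05, or for single clones at an adjusted p. Leaving mice out aside, 81 values kept their direction and side of the threshold and 35 did not. With a mouse left out, 165 kept them and 45 did not. With 1 mouse left out of 3 against 4 the smallest exact p is 0.0667 or 0.1, so no permutation test in marrow can pass there. The cause of the changes below was not tested, except where fewer mice set that limit.

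Fewer detected clones in mixed marrow no longer passed with a minimum of 10 per 1000000 (-0.50), of 1000 per 1000000 (-0.33) or any read after thinning (-0.43), and ranged from -0.86 to -0.43 with a mouse left out. The survival difference of clones at 0.1% or more in marrow did not pass at 1000 per 1000000 (-1.55 by the GMP pool, -1.80 by the mixed pool), and with a mouse left out it ranged from -5.32 to -3.73 and from -5.29 to -3.72. At 1000 per 1000000 the middle class turned to 0.0216 and 0.0421 points in marrow by the GMP and the mixed pool.

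Passing instead were the 10 largest clones in spleen with both tissues averaged (1.74), mouse 24 entering with its spleen, and spleen composition by distances of log2 values (3.90). Averaging both tissues without mouse 24, chosen after seeing the data, also passed for detected clones (-0.56), effective clones (-0.42) and the 10 largest clones (2.15). The 3 largest clones in place of the largest gave -1.21 in marrow. Marrow composition turned with Jaccard distances (0.0452) and log2 distances (2.01), and the distance between tissues turned with Jaccard (-0.0405).

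With a mouse left out, effective clones in spleen ranged from -0.76 to -0.26, the largest marrow clone from -0.68 to 6.35, and composition from -0.0117 to 0.0357 in spleen and -0.0313 to 0.0182 in marrow. Spleen survival at 0.1% or more ranged from -1.96 to 0.452 by the GMP pool and from -1.54 to 0.863 by the mixed pool. In the middle class it ranged from -0.820 to -0.302 and from -1.14 to -0.631, and under 0.01% of the GMP pool from -0.339 to -0.188.

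Centring mice on their median clone called 2 clones higher in mixed spleen, of which mCHERRY_2_Barcode_986693 had reached the minimum mean in mixed mice alone. The 1 clone lower in mixed spleen became 0 with a pseudocount of 100, a mean of at least 10, no filter, no trend or edgeR with or without TMM, and 2 with a mean of at least 1000 or with both tissues averaged. Marrow, with 0, gave 1 with a pseudocount of 1 or a mean of at least 1000, and 2 without trend. These marrow clones were mCHERRY_2_Barcode_64434 and, without trend, also mCHERRY_2_Barcode_321280, which reached the minimum mean in GMP-only mice alone. Leaving mice out gave 0 to 1 in each tissue. Without the GMP-only spleens holding at least 0.1% GFP reads, a choice made after seeing the data, detected spleen clones gave -0.41; 4 against 2 mice allow no exact p below 0.0667, so no measure could pass.

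No paired analysis was possible because the mixed and GMP-only mice share no replicate number. Mixed libraries held fewer mCHERRY reads than GMP-only libraries, which bears on counts of clones with any read.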
